A study of Mus musculus with 6 samples.

Results

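The genes examined here are Myc, Mycn, Max, Mxd1, Mxi1, Mxd3, Mxd4, Mnt and Mlx, the core of the Myc, Max and Mxd network of transcription factors. Every probe set whose platform gene symbol is a network member was taken, 21 of 45101 probe sets on the array, and together they stand for 9 of 18194 genes. The measurements come from 6 Affymetrix arrays of mouse bone marrow cells negative for lineage antigens and positive for cKit and Sca1, a fraction that holds blood stem cells and early multipotent progenitors. Of these arrays 3 were made from GFP-positive cells and 3 from GFP-negative cells. All came from 6-week-old mice of genotype Hes1 GFP/WT, so cells of both groups carried 1 reporter allele and 1 wild-type allele of Hes1, a repressor that Notch signalling switches on. In each group replicate 1 was female and replicates 2 and 3 were male, and arrays are numbered by replicate. The labels give the reporter signal used for sorting as the difference between the groups, and they name no treatment. Whether each array had its own animal is not stated, so p-values reflect only how these samples vary, possibly for technical reasons.

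Myc and Mycn are activators that bind DNA only as a pair with Max, at the E-box sequence CACGTG. The Mxd proteins (Mxd1, Mxi1, Mxd3 and Mxd4) and Mnt compete for the same Max and the same sites, and bring the Sin3 corepressor and histone deacetylases, so the balance of activators and repressors sets the output of shared target genes. Mlx is a second partner: it pairs with some repressors and with the glucose-sensing Mondo proteins. In the blood system of the mouse Myc and Mycn are known to act redundantly in stem cell survival, Myc drives growth and release from the niche, and the Mxd genes are known for their link to cell cycle exit and differentiation.

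Between GFP-positive and GFP-negative cells, Mycn lay higher and Mnt and Mxd4 lay lower, each with no overlap between the groups, while Myc, Max, Mxd1, Mxi1, Mxd3 and Mlx overlapped. Mnt showed the largest difference of the 9 genes, a level 2.32 times lower in GFP-positive cells (95% interval of the log2 fold change -1.79 to -0.64). Mycn was 1.56 times higher and Mxd4 1.36 times lower in GFP-positive cells. No member passed the test over all genes: by limma 0 of 9 had an adjusted p under 0.05 (smallest 0.392), against 0 of 18194 genes in all (0.0%). At an unadjusted p under 0.05, 1 member was higher (background 3.33% of genes) and 1 was lower (background 3.38%). All 3 GFP-positive arrays lay above all GFP-negative ones for 1 member (background 5.89%) and below for 2 members (background 5.51%). These are small counts over 9 genes, and each gene is given below by its measurements. Values are log2 intensities, and log2 fold changes or differences are GFP-positive minus GFP-negative.

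The promoters of the 3 members whose groups did not overlap are shown because the network's own binding letters can be read in some of them. The windows run from 250 bases before to 50 bases after the annotated gene start, from RefSeq on GRCm38.p6, and are printed 5′ to 3′ on the gene's strand, with the E-box CACGTG in capitals. The Mnt window is chr11:74830674-74830973 on the plus strand, the Mxd4 window chr5:34187661-34187960 on the minus strand and the Mycn window chr12:12941787-12942086 on the minus strand.
Mnt: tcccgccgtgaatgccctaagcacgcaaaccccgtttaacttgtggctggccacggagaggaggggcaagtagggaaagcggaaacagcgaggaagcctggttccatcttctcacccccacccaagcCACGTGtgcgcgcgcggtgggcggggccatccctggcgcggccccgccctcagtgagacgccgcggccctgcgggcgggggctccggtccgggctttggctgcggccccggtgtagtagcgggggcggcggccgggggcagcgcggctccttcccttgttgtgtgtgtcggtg
Mxd4: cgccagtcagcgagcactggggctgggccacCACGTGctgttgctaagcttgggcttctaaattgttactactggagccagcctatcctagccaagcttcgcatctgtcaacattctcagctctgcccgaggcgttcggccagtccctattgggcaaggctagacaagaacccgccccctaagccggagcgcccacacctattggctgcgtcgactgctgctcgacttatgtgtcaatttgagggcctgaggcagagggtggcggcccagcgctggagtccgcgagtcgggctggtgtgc
Mycn: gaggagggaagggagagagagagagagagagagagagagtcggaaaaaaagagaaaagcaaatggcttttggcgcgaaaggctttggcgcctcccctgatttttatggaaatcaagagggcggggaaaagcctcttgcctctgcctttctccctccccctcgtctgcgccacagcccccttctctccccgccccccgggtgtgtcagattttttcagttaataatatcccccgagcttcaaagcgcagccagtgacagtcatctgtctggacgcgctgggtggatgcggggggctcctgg

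The E-box begins 123 bases before the start of Mnt and 219 bases before that of Mxd4, and these letters are not in the Mycn window. Max and Mlx also hold it, 3 and 40 bases before their starts. The 60 bases around each are shown with the same capitals, for Max chr12:76962219-76962278 on the minus strand and for Mlx chr11:101087223-101087282 on the plus strand.
Max: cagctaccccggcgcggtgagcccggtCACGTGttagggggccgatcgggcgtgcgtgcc
Mlx: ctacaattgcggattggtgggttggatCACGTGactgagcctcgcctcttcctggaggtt

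Of the 9 members 8 had a promoter in the RefSeq table, with 10 windows in all, and 4 windows held CACGTG, against 7.15% of all 32851 windows searched the same way. Hes1 itself is known to bind the class C letters CACGCG and the N-box CACNAG. The class C letters, read on both strands, were in 0 of the 10 member windows and in 9.27% of all windows. The N-box, read on both strands, was in 5 of the 10 windows, those of Mxd4, Mxd1, Mnt, Mxd3 and 1 of the 3 of Mxi1, against 42.5% of all windows. It lay away from the E-box in Mnt (211 bases before the start) and in Mxd4 (from base 42 after it). A match of letters is a description and no evidence of binding.

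Markers of the sorted cells were checked on every array. Of 4 listed genes of the sorted population 3 were measured, and Ly6a, the gene of the sorting marker Sca1, was not. Kit, Cd34 and Ptprc, the measured ones, were bright on all 6 arrays, between 9.69 and 12.43 (log2 intensity). Cd34 was at 11.86, 11.48 and 11.79 on GFP-positive arrays 1, 2 and 3, against 12.30, 12.43 and 12.28 on GFP-negative arrays 1, 2 and 3, and Ptprc was at 11.35, 10.99 and 11.09 on GFP-positive arrays 1, 2 and 3, against 11.52, 11.37 and 11.38 on GFP-negative arrays 1, 2 and 3. GFP-positive arrays thus lay below GFP-negative ones without overlap for 2 of these 3 markers (background 5.51% of genes), and all 3 had the lower mean in GFP-positive arrays. The part of this in the member values below was not tested. The T cell gene Cd3e lay between 5.38 and 5.98. Of the 7 lineage antigens of the depletion 4 were measured, and Cd4 was the brightest of them, at 8.23 to 9.92. Xist in males and the Y-linked genes Uty, Kdm5d and Eif2s3y in females, which should carry no message, reached 5.59 and 4.69, and serve as a higher and a lower guide to background. All 9 member genes lay above 5.59 on every array, as did 20 of the 21 probe sets. Hes1, whose locus carries the reporter, was at 7.43 ± 0.38 (SD, n = 3) in GFP-positive arrays and 6.89 ± 0.18 in GFP-negative arrays (adjusted p = 0.78 by limma), and its groups overlapped.

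GFP-positive replicate 1 stood apart in markers of endothelial and stromal cells. The summed intensity of the 14 markers was 22643, 4112 and 1925 on GFP-positive arrays 1, 2 and 3, against 3103, 1954 and 2809 on GFP-negative arrays 1, 2 and 3, and 13 of the 14 markers were brightest in GFP-positive replicate 1. On all GFP-positive arrays 3 of the 14, Cxcl12, Vwf and Sparc, lay above all GFP-negative ones (background 5.89% of genes), and 0 lay below. Cxcl12 was at 12.52, 9.27 and 8.33 on GFP-positive arrays 1, 2 and 3, against 5.34, 5.52 and 5.38 on GFP-negative arrays 1, 2 and 3. Leaving out GFP-positive replicate 1 therefore does not remove the difference in these 3 genes. Markers of other cells also moved with the groups. Those of erythroid cells summed to between 4379 and 6678 in GFP-positive arrays and between 781 and 908 in GFP-negative arrays, with 6 of 7 measured markers higher. The globin gene Hba-a1 (4.45 to 5.16) and Alas2 (3.94 to 5.40) stayed below the higher guide to background on every array, and their groups overlapped. Those of B and plasma cells summed to between 4101 and 11056 in GFP-positive arrays and between 1196 and 2637 in GFP-negative arrays. By mean 9 of 9 were higher, and 6 of the 9 lay above without overlap (background 5.89% of genes). The groups overlapped for Cd79b, Vpreb1 and Jchain. Jchain was lower on GFP-positive replicate 3 than on every GFP-negative array. Those of monocytes and macrophages summed to between 3336 and 6919 in GFP-positive arrays and between 2056 and 3486 in GFP-negative arrays, ranges that overlap, with 8 of 10 higher. Without overlap between the groups 5 lay above (background 5.89%) and 1, Csf1r, lay below (background 5.51%). Of the 5 above, Adgre1 (3.65 to 5.09) stayed below the higher guide to background on every array. Csf1r was at 8.36, 8.41 and 7.88 on GFP-positive arrays 1, 2 and 3, against 9.62, 11.12 and 10.52 on GFP-negative arrays 1, 2 and 3. Whether such cells were present, and their part in the member values below, was not tested. In bulk samples fewer cells of a type and less RNA per cell cannot be told apart.

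**Figure D1:**
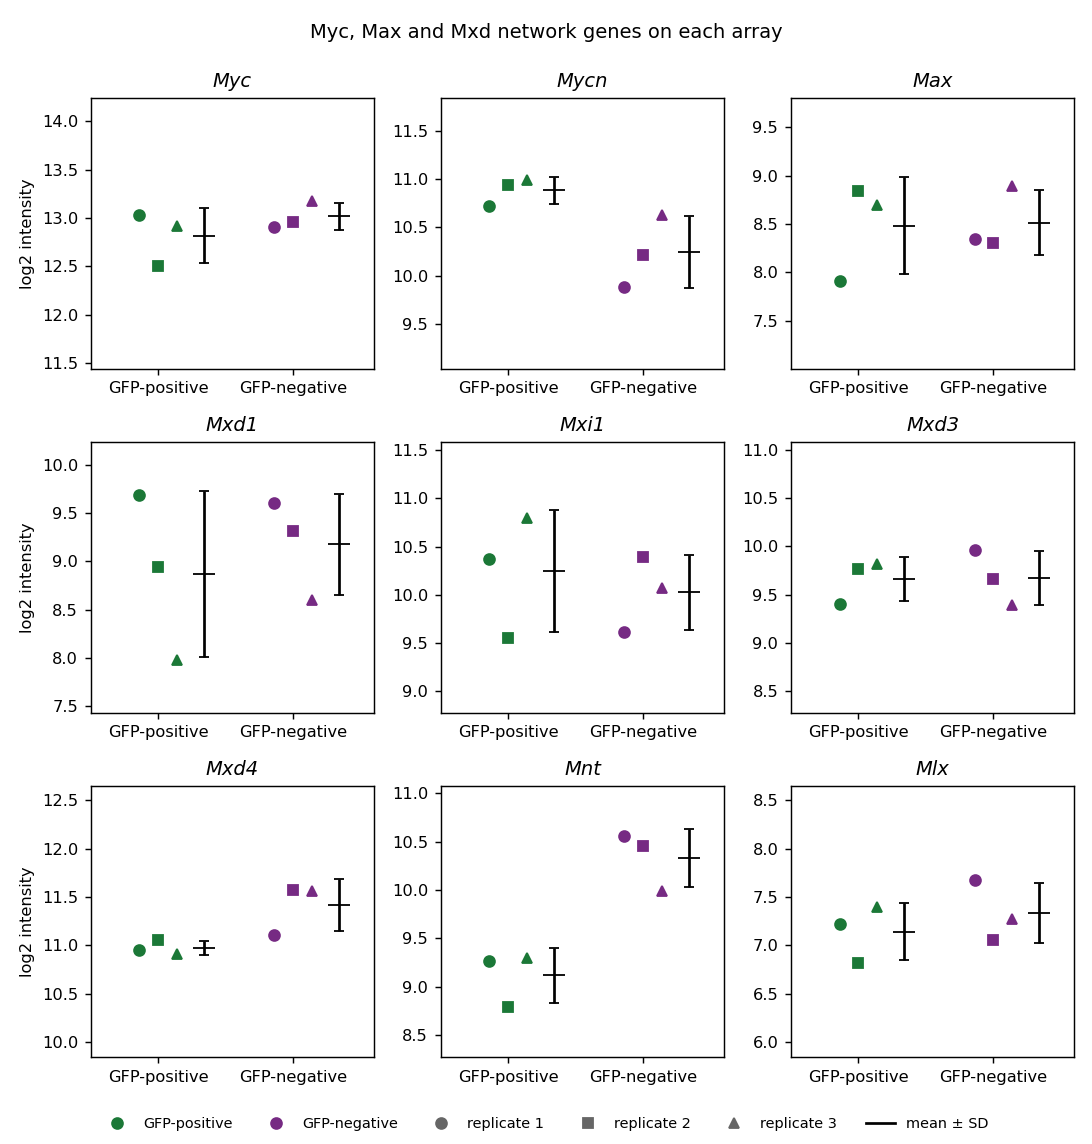
Log2 intensity of the 9 network genes on each of the 6 arrays, GFP-positive in green on the left and GFP-negative in purple on the right of each panel, with symbols for replicates 1 to 3 and bars for the mean ± SD (n = 3). Every panel spans the same range of log2 units, centred on the gene. Mycn separates upward and Mnt and Mxd4 downward in GFP-positive arrays, while the other genes overlap.

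Myc, the founding member and the activator that promotes growth and metabolism, has 1 probe set here. Its log2 intensity was 13.04, 12.50 and 12.92 on GFP-positive arrays 1, 2 and 3, against 12.91, 12.96 and 13.18 on GFP-negative arrays 1, 2 and 3. The groups overlapped, GFP-positive replicate 2 was the lowest array and GFP-negative replicate 3 the highest. The log2 fold change was -0.20 ± 0.20 (SE, n = 3 per group, adjusted p = 0.962 by limma), with a 95% interval of -0.68 to 0.28. Myc is itself induced as an immediate early gene in many cells, and the 20 immediate early genes of a list differed widely among arrays of 1 group. Their median deviation from the GFP-negative mean was 0.63, -0.49 and -1.20 on GFP-positive arrays 1, 2 and 3, against 0.91, -0.10 and -0.80 on GFP-negative arrays 1, 2 and 3. In both groups it fell from replicate 1 to replicate 3. The part of this spread in the Myc values was not tested. Without GFP-positive replicate 2 the log2 fold change of Myc was -0.04.

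Mycn, the close relative of Myc that shares its partner and sites, was at 10.72, 10.94 and 10.99 on GFP-positive arrays 1, 2 and 3 by its brightest probe set, against 9.89, 10.21 and 10.63 on GFP-negative arrays 1, 2 and 3. All GFP-positive arrays lay above all GFP-negative ones, with a gap of 0.10 between GFP-positive replicate 1 and GFP-negative replicate 3. The means were 10.89 ± 0.14 on the GFP-positive arrays and 10.24 ± 0.37 on the GFP-negative arrays (SD, n = 3), and the log2 fold change was 0.64 ± 0.23 (SE, adjusted p = 0.667 by limma). The spread was wider among the GFP-negative arrays, where replicate 3 approached the GFP-positive level. Leaving out GFP-positive replicate 2 or 3, or GFP-negative replicate 1 or 2, moved the unadjusted p to between 0.0752 and 0.0875.

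A second Mycn probe set, 1425922_a_at, also did not overlap between groups. It was at 11.00, 10.85 and 10.64 on GFP-positive arrays 1, 2 and 3 and at 9.46, 9.73 and 10.63 on GFP-negative arrays 1, 2 and 3, with a log2 fold change of 0.89 ± 0.33 (SE, adjusted p = 0.773 by limma over all probe sets). The gap of 0.01 between the replicates numbered 3 is far under the spread within either group. The third, 1425923_at, was dim except on 1 array: it read 9.44, 5.62 and 6.37 on GFP-positive arrays 1, 2 and 3, against 6.02, 5.83 and 5.69 on GFP-negative arrays 1, 2 and 3. The bright array is the one with the high endothelial and stromal markers, and without it the difference of this probe set was 0.15 in place of 1.30. For the brightest probe set the difference without that array was 0.72, larger than with it.

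Max, the partner that Myc needs and that the Mxd proteins and Mnt share, was at 7.91, 8.84 and 8.70 on GFP-positive arrays 1, 2 and 3, against 8.35, 8.30 and 8.90 on GFP-negative arrays 1, 2 and 3. Both the lowest array and the second highest were GFP-positive, so the spread within that group spanned nearly all values. The log2 fold change was -0.03 ± 0.31 (SE, adjusted p = 0.998 by limma), and the 95% interval, -0.80 to 0.75, leaves room for a sizeable difference in either direction. Without GFP-positive replicate 1, the lowest array, the value was 0.26.

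Mnt, the widely expressed repressor that holds Myc targets in check in resting and growing cells alike, was at 9.26, 8.79 and 9.30 on GFP-positive arrays 1, 2 and 3 by its brighter probe set, against 10.56, 10.46 and 9.99 on GFP-negative arrays 1, 2 and 3. The groups were 0.69 apart at their nearest arrays, GFP-positive replicate 3 and GFP-negative replicate 3, wider than the range of values within either group. The means were 9.12 ± 0.28 and 10.33 ± 0.30 (SD, n = 3) in GFP-positive and GFP-negative arrays, and the log2 fold change was -1.21 ± 0.23 (SE, adjusted p = 0.392 by limma). By an exact permutation test, two-sided, p was 0.1, the smallest that 3 arrays against 3 can give, as it was for Mycn and Mxd4. GFP-positive arrays were lower in all 18 alternative settings, between -1.39 and -0.71, and the unadjusted p by limma was under 0.05 in each. Of these settings only the mean of probe sets drew on the other Mnt probe set, and it gave the -0.71 (unadjusted p = 0.0407 by limma). Within the female arrays the difference was -1.29 and within the 4 male arrays -1.17.

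The other Mnt probe set, 1418193_at, was dimmer and did not separate the groups. It was at 7.10, 6.64 and 6.53 on GFP-positive arrays 1, 2 and 3 and at 7.77, 6.72 and 6.43 on GFP-negative arrays 1, 2 and 3, with a log2 fold change of -0.21 ± 0.39 (SE, adjusted p = 0.979 by limma over all probe sets). The difference in Mnt therefore rests on 1 of its 2 probe sets.

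Mxd4, a Mxd repressor linked to resting and differentiated cells, has 4 probe sets, and on 3 of them all GFP-positive arrays lay below all GFP-negative ones. The brightest, 1434378_a_at, was at 10.95, 11.06 and 10.91 on GFP-positive arrays 1, 2 and 3, against 11.11, 11.57 and 11.57 on GFP-negative arrays 1, 2 and 3. The GFP-positive arrays lay close together, and GFP-negative replicate 1 came within 0.05 of them. The log2 fold change was -0.44 ± 0.18 (SE, adjusted p = 0.752 by limma). The difference was -0.16 within the female arrays and -0.59 within the male arrays, and the interaction of group and sex did not pass (adjusted p = 0.86 by limma).

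Of the other Mxd4 probe sets, 1434379_at separated the groups most widely. It read 8.29, 8.61 and 8.24 on GFP-positive arrays 1, 2 and 3 and 9.29, 9.48 and 9.25 on GFP-negative arrays 1, 2 and 3, a gap of 0.64 between the groups that exceeds the spread within each. Its log2 difference was -0.96 ± 0.17 (SE, adjusted p = 0.429 by limma over all probe sets), a level 1.95 times lower in GFP-positive cells, and it had the smallest p of the 21 probe sets. The dim 1422575_at lay between 5.79 and 6.30 in GFP-positive arrays and between 6.38 and 6.51 in GFP-negative arrays, with a log2 fold change of -0.33 ± 0.19 (SE). The groups overlapped on 1422574_at, at -0.20 ± 0.35. All 4 probe sets thus had the same sign, and their differences lay between -0.96 and -0.20. With GFP-positive replicate 1 left out, the array with the high endothelial and stromal markers, the differences of the probe sets that stand for Mnt and Mxd4 were -1.29 and -0.43.

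**Figure D2:**
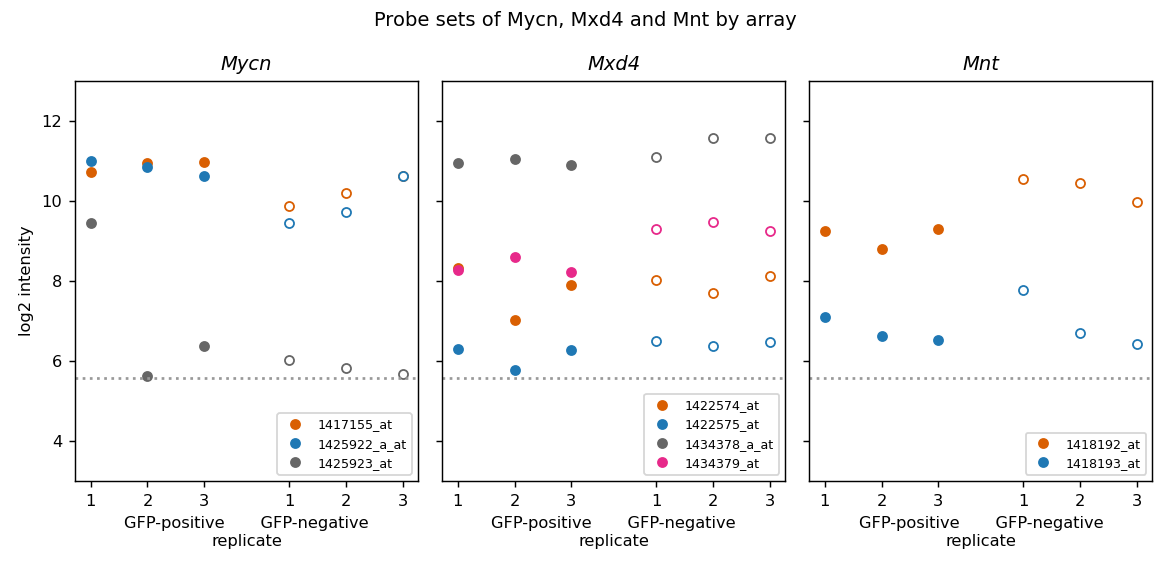
Log2 intensity of each probe set of Mycn, Mxd4 and Mnt on the 6 arrays, GFP-positive replicates as filled points on the left and GFP-negative replicates as open points on the right of each panel, with the higher guide to background (5.59) as a dotted line. Mycn probe set 1425923_at is bright on GFP-positive replicate 1 only, and Mnt probe set 1418193_at does not show the separation of 1418192_at.

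The remaining Mxd repressors overlapped between groups. Mxd1, known for its rise as myeloid cells mature, was at 9.69, 8.94 and 7.98 on GFP-positive arrays 1, 2 and 3 by its brightest probe set, against 9.61, 9.32 and 8.60 on GFP-negative arrays 1, 2 and 3. Its log2 difference was -0.31 ± 0.49 (SE, adjusted p = 0.975 by limma), and its 3 probe sets ranged from -0.31 to 0.07. Arrays of 1 group differed by up to 1.71 log2 units, from GFP-positive replicate 1 to GFP-positive replicate 3, far more than the difference between the group means. The values of this probe set fell from replicate 1 to replicate 3 in both groups.

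Mxi1, a Mxd repressor also known as a hypoxia-responsive gene, was at 10.38, 9.56 and 10.80 on GFP-positive arrays 1, 2 and 3, against 9.62, 10.39 and 10.07 on GFP-negative arrays 1, 2 and 3. Both the lowest and the highest array were GFP-positive. The log2 fold change was 0.22 ± 0.37 (SE, adjusted p = 0.977 by limma), and the other probe set gave 0.02 ± 0.44. Its value was 0.56 without GFP-positive replicate 2 and -0.06 without GFP-positive replicate 3, so its sign rests on single arrays.

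Mxd3, the Mxd repressor that in the mouse is found in cycling cells during S phase, was at 9.40, 9.76 and 9.82 on GFP-positive arrays 1, 2 and 3, against 9.96, 9.66 and 9.39 on GFP-negative arrays 1, 2 and 3. The log2 fold change was -0.01 ± 0.21 (SE, adjusted p = 1 by limma), with a 95% interval of -0.53 to 0.51. The 23 mitotic genes of a list had a median log2 fold change of 1.50, and all 23 were positive. Among GFP-negative arrays they were highest in replicate 1, at a median deviation of 0.96 against -0.37 and -0.57 in replicates 2 and 3, and Mxd3 was also highest in that array. Among GFP-positive arrays, where the mitotic medians were 1.72, 1.35 and 1.44 in replicates 1, 2 and 3, Mxd3 was lowest in replicate 1. The other Mxd3 probe sets were at 0.11 ± 0.22 and 0.25 ± 0.63, the second of these from 1448878_at, which fell below the higher guide to background on GFP-positive replicate 1 (4.99).

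Mlx, the second partner, was at 7.22, 6.81 and 7.39 on GFP-positive arrays 1, 2 and 3, against 7.68, 7.06 and 7.27 on GFP-negative arrays 1, 2 and 3. The log2 fold change was -0.19 ± 0.24 (SE, adjusted p = 0.971 by limma), and the other probe set gave -0.01 ± 0.29. Without GFP-positive replicate 2 the value of the brighter probe set was -0.03, and without GFP-negative replicate 1 it was -0.02. On both probe sets replicate 2 was the lowest array of its group.

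**Figure D3:**
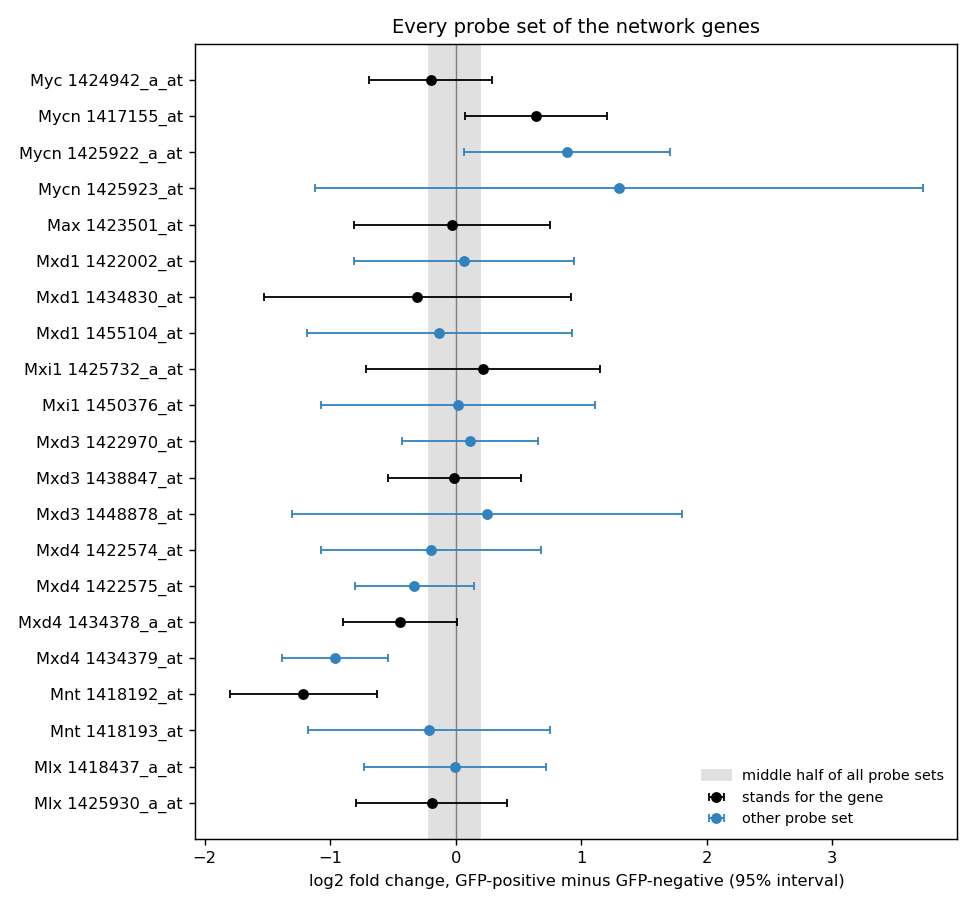
Log2 fold change (GFP-positive minus GFP-negative) of each of the 21 probe sets with its 95% interval from limma, in black where the probe set stands for its gene, beside the middle 50% of all probe sets in grey. The intervals of 4 probe sets leave out 0, 2 of Mycn above it and 1 each of Mxd4 and Mnt below it, before any adjustment.

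Over the probe sets, 8 of 21 had a positive and 13 a negative log2 fold change, with a median of -0.03, against a median of 0.00144 over all 45101 probe sets. The groups did not overlap for 2 member probe sets above (background 5.59%) and 4 below (background 5.58%). At an unadjusted p under 0.05 there were 2 above (background 2.87%) and 2 below (background 3.27%), and 0 passed over all probe sets by limma (background 0.0%). Probe sets of 1 gene share its transcript and are not independent of each other. By role, the 5 repressors had a median log2 fold change of -0.31, which is the value of Mxd1, whose groups overlapped. Of the 5 repressors 4 were negative, beside 51.3% positive over all 18194 genes. Mxd3 is among the 4 at -0.01, and only Mnt and Mxd4 did not overlap. The 2 activators lay on opposite sides of 0.

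The sexes were also compared, since each group holds 1 female and 2 male arrays. Mycn, Mnt and Mxd4 kept their sign within the female arrays and within the male arrays, at 0.84 and 0.54 for Mycn. Max, Mxd1, Mxi1, Mxd3 and Myc had opposite signs in the sexes, and the widest contrast was in Mxd3, at -0.56 within the females and 0.26 within the males. The interaction of group and sex did not pass for any member by limma (adjusted p from 0.749 to 0.978, background 0.0%). At an unadjusted p under 0.05 it was 0 of 9 (background 7.24%).

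**Figure D4:**
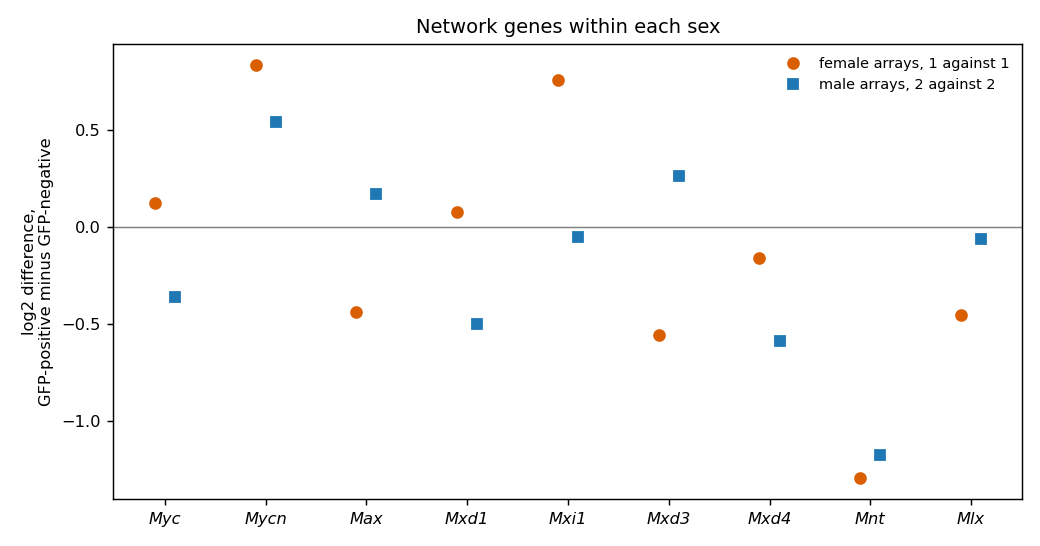
Log2 difference (GFP-positive minus GFP-negative) of each network gene within the female arrays, 1 against 1 (circles), and within the male arrays, 2 against 2 (squares). Mycn is above 0 and Mnt, Mxd4 and Mlx are below 0 in both sexes.

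Beyond the core members, 6 further genes of the extended network were measured. Mlxip, the glucose-sensing Mondo partner of Mlx, was at 7.79, 7.80 and 7.98 on GFP-positive arrays 1, 2 and 3, against 8.17, 8.89 and 9.86 on GFP-negative arrays 1, 2 and 3. The groups did not overlap, but the GFP-negative arrays themselves spread over 1.69 log2 units, and the log2 fold change was -1.11 ± 0.42 (SE, adjusted p = 0.716 by limma). Its relative Mlxipl was at 3.05 to 3.37 on all arrays, below both guides to background. Mga, a large repressor that also pairs with Max, was at -0.59 ± 0.44, and Bmyc, a rodent gene related to Myc, at -0.46 ± 0.22. Mycl and Mycs were dim, between 5.62 and 6.63, with log2 fold changes of 0.04 ± 0.18 and 0.40 ± 0.24, and the groups overlapped for these 4 genes.

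Genes that act with or on the network were counted from lists chosen with earlier results of these data known, beside a median of 0.01 and 51.3% positive over all 18194 genes. By limma 0 genes of these lists passed over all genes. The Sin3 corepressor complex that Mxd and Mnt recruit had a median log2 fold change of -0.08 over 12 measured genes, with 9 negative and 0 at an unadjusted p under 0.05 in either direction. Its smallest p-values belonged to Ing2, a reader of histone marks, at -0.50 ± 0.40 (SE), and to Suds3, a subunit that aids deacetylation, at -0.28 ± 0.27. Coactivators and partners of Myc had a median of -0.07 over 15 genes, 10 of them negative. At an unadjusted p under 0.05, 0 were above 0 (background 3.33%) and 1 was below (background 3.38%). That gene was the acetyltransferase Crebbp, at 10.67 ± 0.18 on the GFP-positive arrays and 11.25 ± 0.13 on the GFP-negative arrays (SD, n = 3), without overlap. Trrap, the scaffold of the acetyltransferase complexes Myc recruits, was at -0.71 ± 0.30 (SE) and its groups overlapped.

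Genes of Myc turnover had a median of -0.07 over 18 genes. At an unadjusted p under 0.05, 2 were above 0 (background 3.33%) and 1 was below (background 3.38%). The higher ones were Skp2, a ubiquitin ligase subunit that also degrades cell cycle inhibitors, and Cip2a, an inhibitor of the phosphatase PP2A that stabilises Myc protein. Skp2 was at 9.19 ± 0.13 on the GFP-positive arrays and 8.55 ± 0.21 on the GFP-negative arrays (SD, n = 3), and Cip2a at 9.14 ± 0.51 on the GFP-positive arrays and 7.67 ± 0.81 on the GFP-negative arrays. Neither group pair overlapped, and limma gave adjusted p-values of 0.528 and 0.614. For Cip2a the highest GFP-negative array was replicate 1, the one with the highest mitotic genes. The lower one, Usp22, a deubiquitinase of the SAGA complex that was named after its values were seen, was at 9.76 ± 0.30 on the GFP-positive arrays and 10.53 ± 0.36 on the GFP-negative arrays.

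Known targets that Myc raises, which serve ribosome assembly, nucleotide synthesis and growth, had a median of -0.002 over 43 measured genes, with 20 positive and 23 negative. At an unadjusted p under 0.05 there were 0 higher (background 3.33%) and 3 lower (background 3.38%). The groups did not overlap for 4 genes above (background 5.89%) and 5 below (background 5.51%). Polr3g, a subunit of RNA polymerase III, was at 7.45, 7.72 and 7.90 on GFP-positive arrays 1, 2 and 3, against 8.47, 8.99 and 9.21 on GFP-negative arrays 1, 2 and 3, a log2 fold change of -1.20 ± 0.25 (SE, adjusted p = 0.412 by limma). Ccnd2, a cyclin that starts the cell cycle, was at 10.89 ± 0.16 on the GFP-positive arrays and 11.59 ± 0.04 on the GFP-negative arrays (SD, n = 3), a log2 fold change of -0.70 ± 0.15 (SE, adjusted p = 0.423 by limma). Ppat, the enzyme that commits to purine synthesis, was named after its values were seen, at 10.56 ± 0.19 on the GFP-positive arrays and 11.16 ± 0.18 on the GFP-negative arrays (SD, n = 3). Of the genes without overlap the other two below were Nop16 and Rcl1, factors of ribosome assembly, at -0.33 ± 0.21 and -0.34 ± 0.18 (SE). The 4 above were Nop56, a core protein of small nucleolar particles, at 0.33 ± 0.16, the lactate dehydrogenase gene Ldha at 0.17 ± 0.14, Shmt2, a mitochondrial enzyme of folate metabolism, at 0.30 ± 0.17, and the nucleoside diphosphate kinase gene Nme1 at 0.37 ± 0.20. These 6 were named after their values were seen. When each array was left out the list's median lay between -0.12 and 0.11.

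Targets that Myc lowers had a median of -0.12 over 14 genes, with 0 at an unadjusted p under 0.05 in either direction. Of these the leukocyte integrin gene Itgal was at -0.70 ± 0.45 (SE) and the cell cycle inhibitor Cdkn1b at -0.29 ± 0.21. Glucose-sensing targets of the Mlx partners had a median of 0.05 over 8 genes and 0 at that threshold, with Hk2, a hexokinase, at -1.36 ± 0.59 and Pklr, a pyruvate kinase, at 0.95 ± 0.55. In the mitotic list 15 of the 23 measured genes were higher at an unadjusted p under 0.05 (background 3.33%) and 0 lower. That count was 9 without GFP-positive replicate 1, 9 without GFP-positive replicate 3 and 10 without GFP-negative replicate 2, and 0 were lower each time. For these fits with an array left out the share of all genes was not taken, and the 3.33% belongs to the fit of all arrays. Aurka, a spindle kinase, was at 2.63 ± 0.41 (SE) and Cenpa, the centromeric histone, at 1.11 ± 0.23. Immediate early genes had a median of -0.27 over 20 genes with 0 at that threshold. The median turned to 0.12 without GFP-positive replicate 3 and to 0.27 without GFP-negative replicate 1, and it was -0.90 without GFP-positive replicate 1 and -0.91 without GFP-negative replicate 3. With the replicate number as a block the unadjusted p by limma was under 0.05 for 6 of the 20, each lower in GFP-positive arrays, and with sex as a covariate for 2. The share of all genes under that threshold was not taken for these fits, so these counts have no background beside them. The 2 of smallest p in the fit without a block were Ier3 at -0.87 ± 0.40 and Btg2, a gene that is also in the list of targets Myc lowers, at -0.63 ± 0.47.

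**Figure D5:**
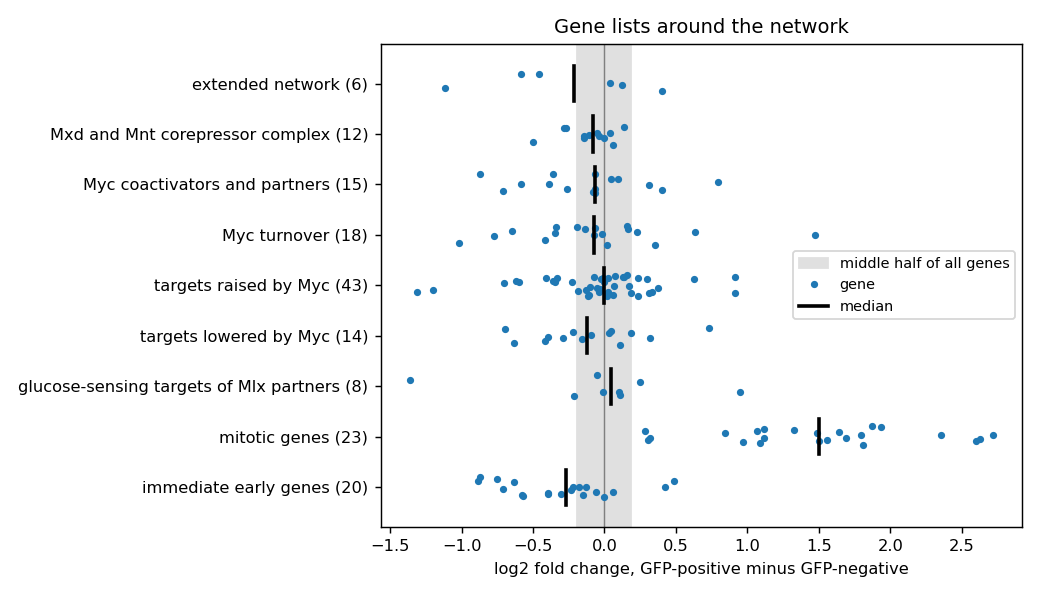
Log2 fold change (GFP-positive minus GFP-negative) of each measured gene in 9 lists around the network, with the number of genes in brackets, the list median as a black bar and the middle 50% of all genes in grey. The lists of corepressors, coactivators, turnover and targets have medians between -0.12 and 0.05. The extended network and immediate early lists have medians of -0.21 and -0.27, and the mitotic list lies to the right with a median of 1.50.

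The genes whose pattern over the 6 arrays was most like that of Myc, among 10915 other genes above the 40th percentile of mean level, were Cdk20, a cyclin-dependent kinase relative (Pearson r = 0.997, Spearman rho = 1), Lrrcc1, a centrosomal protein (r = 0.984, rho = 1), and Dynlt3, a dynein light chain (r = 0.983, rho = 0.943). For Mycn they were Gclm, a subunit of the enzyme that starts glutathione synthesis (r = 0.98, rho = 0.943), Chst1, a sulfotransferase (r = 0.977, rho = 0.943), and Fbxo41, an F-box protein (r = 0.976, rho = 0.943). These values rest on 6 points that share arrays and normalisation, and 101 genes had an r above 0.9 with Myc and 56 with Mycn. On GFP-positive replicate 2, the lowest array of Myc, Cdk20 read 5.09, below the higher guide to background. Gclm was at 9.87, 9.98 and 9.97 on GFP-positive arrays 1, 2 and 3, against 8.35, 9.10 and 9.63 on GFP-negative arrays 1, 2 and 3. It was picked for its likeness to Mycn over these same arrays, so a shared order of arrays follows from the choice.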

How the data were processed

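Each array's deposited table holds linear intensities, 1 for each probe set. Per the submitters' processing notes they came from RMA (background correction, quantile normalisation, probe summary). Its version is not given in the sources used here. Small differences near background are compressed by this method, and shifts shared by most genes are removed. Array medians lay between 74.0 and 78.5 and the lowest value was 4.12, so log2 was taken without a pseudocount. Symbols came from the platform annotation: 34958 probe sets had 1 symbol, 932 several and 9211 none listed, and no probe set with several symbols included a member. RefSeq (GRCm38.p6) held 34754 of the 1-symbol probe sets and changed 0 symbols. The probe set with the highest mean log2 value stood for each of the 18194 genes. GFP-positive and GFP-negative arrays were compared with limma 3.58.1 (R 4.3.3) without covariates, with Benjamini-Hochberg adjustment over all genes (or all 45101 probe sets) at 0.05, and single values by a two-sided exact permutation test. The number of arrays limits the precision. The fitting code was tested on simulated data. Alternatives were other probe set choices, a filter, variance priors, array weights, normalisations, a replicate block, sex, male arrays, each array left out and log2 of the value plus 16. The members and lists were chosen with earlier results of these data known. Named genes were the members, the extended network, the 2 of smallest p in each list, the sorting markers, Hes1, the sex-linked genes and the 3 genes most like Myc and Mycn. Other genes of the lists of Myc turnover and of targets that Myc raises were named after their values were seen, as said beside them. Single markers of other cell types were also named after their values were seen. Figures used matplotlib 3.10.9.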

Additional observations from a re-analysis of the deposited data

How the results depend on the processing

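In all 18 alternatives 0 members passed the adjusted threshold by limma, and Myc, Mycn, Mxd4, Mnt and Mlx kept their sign. For Mycn 12 of the 18 had an unadjusted p under 0.05, for Mxd4 8 and for Mnt 18. Every Mnt setting used the probe set that separates the groups, averaged with the other only in the mean of probe sets. The count of members higher at that p, 1 as reported, was 0 with the most variable probe set and in male arrays alone, and 0 to 1 when each array was left out. The count lower, 1 as reported, was 2 with probe sets averaged per gene, the most variable probe set, an intensity trend, median centring, sex as a covariate, male arrays alone and log2 of the value plus 16, and 1 to 2 when each array was left out. The share of all genes at that p was not taken for the alternatives, so these counts have no background beside them. Log2 fold changes near 0 turned: Max was 0.0717 with array weights, 0.0275 with renewed quantile normalisation and 0.17 in male arrays alone, and Mxd3 was 0.12 with the mean of probe sets, 0.25 with the most variable one, 0.0449 with array weights, 0.0297 with renewed quantile normalisation and 0.26 in male arrays alone. Mxi1 was -0.0527 in male arrays alone. When each array was left out, Myc ranged from -0.31 to -0.04, Mlx from -0.33 to -0.02, Max from -0.21 to 0.26, Mxd1 from -0.71 to 0.14, Mxi1 from -0.0602 to 0.561 and Mxd3 from -0.15 to 0.13. The cause was not tested. Mycn was 1.30 with its most variable probe set, the one bright on GFP-positive replicate 1 alone. List medians near 0 also turned when each array was left out, from -0.14 to 0.01 for the corepressor complex, -0.25 to 0.01 for the coactivators and -0.09 to 0.24 for the glucose-sensing targets. Of 162 list medians 11 moved by more than the spread between replicates. With the replicate number as a block the members' log2 fold changes were the same by construction, 0 passed (smallest adjusted p = 0.493) and Mnt had an unadjusted p of 0.00827. Deviations of same-numbered arrays correlated at 0.12, 0.05 and 0.09 over all genes, and the numbers were not taken as pairs. A weak correlation over all genes does not show that the arrays were unpaired. Mxd1 and the immediate early medians fell from replicate 1 to replicate 3 in both groups. With the block the SE of Mxd1 was 0.22 in place of 0.49. Over all genes the count past the threshold was 1 with the filter at the 40th percentile and 5 without GFP-positive replicate 3, and 0 of these were members.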
